A study of Homo sapiens with 4 samples.

Results

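The breast cancer lines T-47D and MDA-MB-231 were compared with each other in the absence of drug, on 2 of the 4 Affymetrix U133 Plus 2.0 arrays of a study of JPH203, an inhibitor of the leucine transporter LAT1. Both lines were grown in RPMI1640 medium and received Captisol, a modified cyclodextrin that served as the vehicle, at 100 μM for 24 h. The other 2 arrays, used here only beside the main comparison, came from the same lines after 24 h with 100 μM JPH203. MDA-MB-231 is a human triple negative breast cancer line without estrogen receptor, progesterone receptor or HER2 amplification, and T-47D is a human line from a ductal carcinoma that has both hormone receptors. Each condition was run on 1 array, so no value below has an error, a replicate check or a p-value, and a difference between the lines cannot be told apart from a difference between 2 cultures or 2 arrays. Each line also stands for 1 patient's tumor, so nothing here separates the lines from the subtypes they are used to model.

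Breast cancer lines fall broadly into luminal and basal types. Luminal cells keep the programme of the milk duct lining, in which the transcription factors GATA3, FOXA1 and the estrogen receptor drive secretory and junction genes, and adhere through E-cadherin. Some basal lines, MDA-MB-231 among them, have taken on a mesenchymal state, in which factors such as ZEB1 and SNAI2 bind short E-box sequences in epithelial promoters and keep them silent, while vimentin, caveolins, matrix proteins and proteases are made. The lines also differ in which receptors they display and in how they run central metabolism, the setting in which a block of amino acid uptake acts.

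Signals are linear intensities in arbitrary units, and the signal of a gene is that of the probe set, among those naming it alone, with the highest mean over both control arrays. A signal of 100, the level to which the trimmed mean of each array is scaled, was taken as the minimum. Of 19775 genes with such a probe set, 8295 reached it on at least 1 of the 2 control arrays and 5690 on both. At least 2-fold higher signals were found for 1940 genes (23.4%) in MDA-MB-231 cells as well as for 2021 genes (24.4%) in T-47D cells. Among genes at the minimum on both arrays the counts were 925 (16.3%) and 917 (16.1%). A signal of at least 1000 in one line and below 100 in the other, called on and off below, was found for 54 genes (0.651%) on in MDA-MB-231 cells, with 70 genes (0.844%) on in T-47D cells. These shares are the background against which the counts of each gene group should be read. The groups were chosen with earlier results of these data known, so their counts are descriptions and not tests. A ratio is given as a size only where both signals reached 100. Where one did not, the brighter signal divided by 100 is given as a lower bound. The spread was wide, with the central 95% of ratios of MDA-MB-231 over T-47D between 0.23 and 4.68 among genes at the minimum on both arrays, and a median log2 ratio of 0.02.

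**Figure D1:**
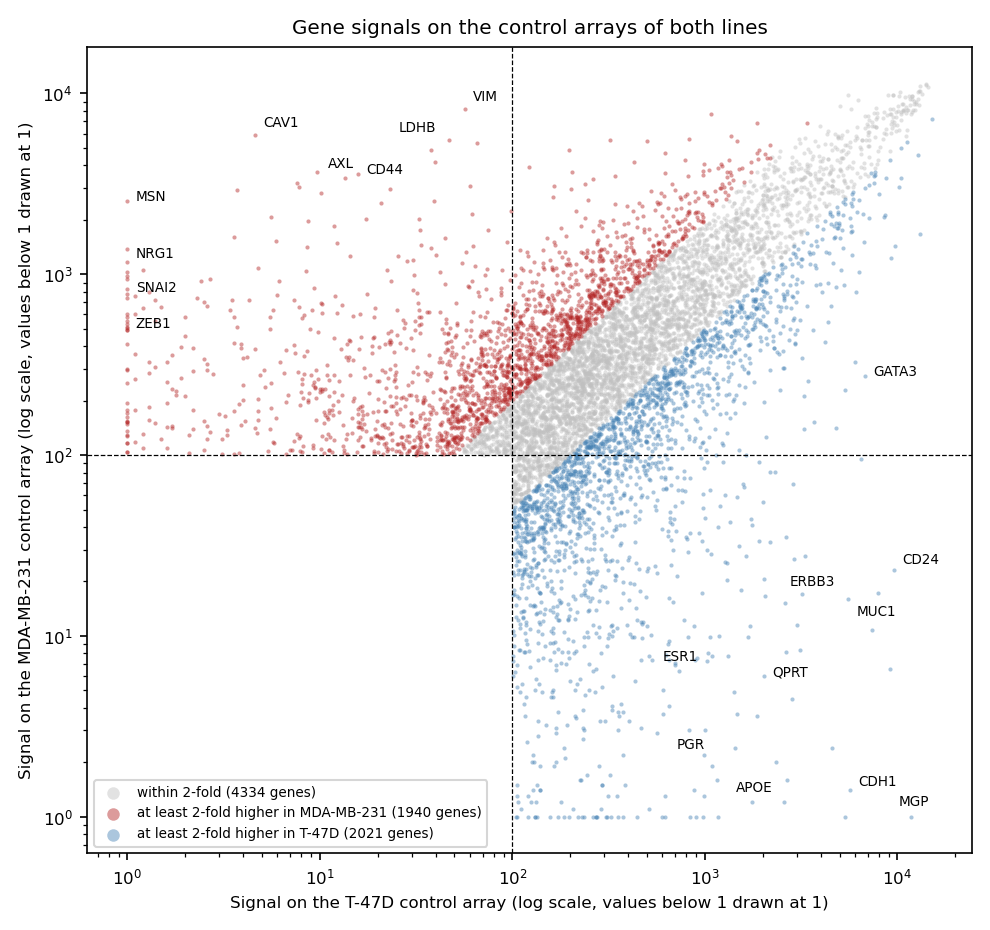
Signal of each of the 8295 genes on the MDA-MB-231 control array (vertical) against the T-47D control array (horizontal), both on log scales with values below 1 drawn at 1; dashed lines mark the minimum signal of 100 and colors the 2-fold calls. The upper left field holds genes such as VIM and CAV1 that reached the minimum in MDA-MB-231 cells alone, and the lower right field genes such as CDH1 and MUC1 that did so in T-47D cells alone.

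Several measures bear on all of these values. Other probe sets of the same gene mostly gave the same direction. Of 1331 called genes with more than 1 probe set at the minimum, 1268 (95.3%) had every one of them on the same side of equal signal. The median difference in log2 ratio between 2 probe sets of a gene was 0.24 over 1806 genes with both probe sets at the minimum on both arrays, and the value at 95% of them was 1.17. The added poly-A spike-in transcripts were 3.25-fold brighter on the T-47D than on the MDA-MB-231 control array, and hybridization controls 1.45-fold. When the arrays were scaled to the poly-A spike-ins instead, the median log2 ratio over all tested genes moved from 0.0 to 1.85, and 93.8% of calls went to MDA-MB-231 cells, against 49.0% on the deposited scale. Medians on the spike-in scale are over the genes that reach the minimum there, which are not exactly those of the deposited scale. On that scale any excess in T-47D cells of less than 3.25-fold turns into an excess in MDA-MB-231 cells. Every ratio below is therefore relative to the whole of its array and not per cell. None of the 14 measured markers of blood and endothelial cells reached the minimum on either control array, and for genes in multigene families (metallothioneins, HLA, AKR1C, GSTM) the probe sets cannot fully separate the copies.

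Regulators of the luminal state were high in T-47D cells. Of 13 luminal transcription factors at the minimum, 11 were at least 2-fold higher in T-47D and 0 in MDA-MB-231 cells, with a median log2 ratio of -4.62 against 0.0 over all genes. GATA3, the zinc finger factor that specifies duct lining cells, gave a signal of 275 in MDA-MB-231 against 6794 in T-47D cells, a 24.7-fold difference carried by all 3 of its probe sets. ESR1, the estrogen receptor, gave 6.4 and 735. Its target PGR, the progesterone receptor, gave 3 and 825. FOXA1, which opens chromatin for the estrogen receptor, was at 5 and 607, and SPDEF, an ETS factor of secretory cells, at 4.9 and 1419. All 4 were thus below the minimum in MDA-MB-231 cells. GATA3, XBP1, TFAP2C, EHF and LMO4 were above it there, XBP1 at 422 against 4217. ELF5, a factor of milk-producing alveolar cells, was on in T-47D cells as well (7.7 and 1086).

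The secretory products of duct cells followed the same order. Of 22 estrogen-responsive and secretory genes at the minimum, 20 were at least 2-fold higher in T-47D and 0 in MDA-MB-231 cells (median log2 ratio -5.7). PIP, a secreted protein of apocrine cells, gave a signal of 6.6 in MDA-MB-231 against 9157 in T-47D cells, a difference of at least 91.6-fold. AGR2, a disulfide isomerase needed to make mucins, gave 10.8 and 7346, and its neighbour AGR3 7.7 and 1323. MUC1, the mucin of the luminal surface, gave 16 and 5536. PRLR, the prolactin receptor, was at 16.6 and 2051, and GHR, the growth hormone receptor, at 0.6 and 1168. Both hormone receptors were thus off in MDA-MB-231 cells. IGFBP5, a secreted binder of insulin-like growth factors, was at 1.2 and 2565. SLC39A6, a zinc transporter known as an estrogen target, differed little, with 946 and 1156. TFF1, the classic estrogen-induced trefoil peptide, reached only 132 in T-47D cells, against 13.2.

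Epithelial adhesion genes were higher in T-47D cells with few exceptions. Of 30 junction and polarity genes at the minimum, 25 were at least 2-fold higher in T-47D and 1, CLDN12, in MDA-MB-231 cells (median log2 ratio -3.94). CDH1, E-cadherin, gave a signal of 1.4 in MDA-MB-231 against 5666 in T-47D cells, at least 56.7-fold higher. The sealing claudins CLDN1 (27.8 and 3302), CLDN3 (3 and 998.6) and CLDN7 (51.2 and 978) were all below the minimum in MDA-MB-231 cells. CLDN4 (312 and 1554) and the adhesion molecule EPCAM (303 and 2546) were lower but still measured, by 4.98- and 8.41-fold. RAB25, a small GTPase of epithelial recycling endosomes, was at 8.4 and 3106. The membrane protease ST14, or matriptase, was at 3.6 and 1869, and its inhibitor SPINT1 at 1.6 and 1151. Another inhibitor of that protease, SPINT2, was measured in both lines (1131 and 3749.7). Not every junction gene differed. The scaffold TJP1 gave 1072 and 655, and DSG2, a desmosomal cadherin, 585 and 315.

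The regulators that oppose each other in the epithelial to mesenchymal transition were split between the lines. ESRP1, the splicing factor that enforces epithelial isoforms, gave a signal of 0.4 in MDA-MB-231 against 972 in T-47D cells. GRHL2, a factor that maintains junction genes, was at 3.8 and 355, and OVOL2, a repressor of ZEB1, at 13.9 and 249. All 5 EMT transcription factors that reached the minimum were higher by 2-fold or more in MDA-MB-231 cells and below 100 in T-47D cells. ZEB1 was at 502 and 0.3, SNAI2, also called Slug, at 937 and 0.4, and FOSL1, a subunit of AP-1, at 668 and 2.6. Those of the list that stayed below 100 on both arrays were SNAI1, ZEB2, TWIST1, TWIST2, PRRX1, TCF4 and FOXC2. KLF4 and KLF5, placed with the epithelial regulators, were higher in MDA-MB-231 cells (502 against 94.4, 148 and 21.6).

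Because ZEB1 and SNAI2 act through the E-box CACCTG, and FOSL1 through AP-1 sites (TGANTCA), both were searched on either strand in promoters from RefSeq (GRCh38.p14), 250 bases before to 50 after each start. Of the 70 genes on in T-47D cells 55 had a promoter in that table, and of the 54 on in MDA-MB-231 cells 48. The E-box was present in 20 of 55 (36.4%) and in 9 of 48 (18.8%), beside 17.4% of the 6991 promoters of genes at the minimum and 20.6% of all 27305. The AP-1 site was present in 3 (5.5%) and in 5 (10.4%), beside 4.2% and 7.8%. No promoter of either set held the palindromic estrogen response element, nor did any of the 6991. These are counts of letters in a short window with no test, and base composition differed too, with median GC of 62.7% for genes on in T-47D, 63.8% for those on in MDA-MB-231 and 65.3% for genes at the minimum. The part of base composition was not tested. The promoters chosen are, for T-47D, those of the epithelial genes with a pair of E-boxes and, for MDA-MB-231, those of the genes with AP-1 sites, in each case among the 20 brightest on genes. Each line gives the 250 bases before the start, 5′ to 3′ on the strand of the gene, with matches in capitals.
RAB25: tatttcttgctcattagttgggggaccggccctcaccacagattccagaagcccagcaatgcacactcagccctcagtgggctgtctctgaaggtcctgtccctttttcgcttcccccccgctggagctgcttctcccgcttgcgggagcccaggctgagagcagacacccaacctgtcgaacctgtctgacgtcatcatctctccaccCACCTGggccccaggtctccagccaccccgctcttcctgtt
MUC1: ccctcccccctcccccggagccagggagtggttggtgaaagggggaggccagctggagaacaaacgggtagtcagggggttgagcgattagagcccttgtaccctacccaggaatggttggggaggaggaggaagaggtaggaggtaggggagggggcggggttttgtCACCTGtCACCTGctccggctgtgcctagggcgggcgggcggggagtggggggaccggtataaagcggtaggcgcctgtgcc
F3: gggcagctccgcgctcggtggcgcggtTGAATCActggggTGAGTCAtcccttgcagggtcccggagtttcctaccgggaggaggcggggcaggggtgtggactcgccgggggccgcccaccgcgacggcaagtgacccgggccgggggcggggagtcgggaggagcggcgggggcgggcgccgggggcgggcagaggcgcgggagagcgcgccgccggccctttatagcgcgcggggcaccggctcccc
GSTP1: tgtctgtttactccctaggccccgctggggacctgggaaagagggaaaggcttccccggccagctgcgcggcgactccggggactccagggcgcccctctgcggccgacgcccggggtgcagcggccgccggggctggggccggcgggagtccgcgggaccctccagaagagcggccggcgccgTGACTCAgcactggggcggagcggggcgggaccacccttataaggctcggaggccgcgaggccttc
RAB25 lies at chr1:156060910-156061159 on the plus strand, with its E-boxes 41 bases before and 37 bases after the start, the latter outside the stretch shown. MUC1 lies at chr1:155192916-155193165 on the minus strand, with E-boxes 82 and 75 bases before the start that do not overlap. F3, tissue factor, lies at chr1:94541760-94542009 on the minus strand, with AP-1 sites 223 and 210 bases before the start, and GSTP1, a glutathione transferase, at chr11:67583562-67583811 on the plus strand, with 1 site 66 bases before it. F3 gave a signal of 3196 in MDA-MB-231 against 7.6 in T-47D cells, and GSTP1 of 2964 and 23.1. These 4 promoters thus belong to genes measured in one line alone. Promoters of CDH1 and EPCAM were not analysed here.

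Contractile genes were mixed, while genes of the membrane-bending machinery marked MDA-MB-231 cells. Of 20 mesenchymal cytoskeleton and caveola genes at the minimum, 13 were at least 2-fold higher there and 2 in T-47D cells (median log2 ratio 3.04). CAV1 and CAV2, the coat proteins of caveolae, had signals of 5874 and 2932 in MDA-MB-231 against 4.6 and 3.7 in T-47D cells. The cavins that shape the same pits were higher there as well, CAVIN3 at 778 and 0.4 and CAVIN1 at 1334 and 176. MSN, or moesin, which ties actin to the membrane, gave 2542 and 1, a bound of 25.4-fold. LGALS1, a galectin often listed as mesenchymal, was bright in both (7333 and 8450.0). Of the contractile genes, MYLK (426 and 48.1), CALD1 (1338 and 283) and TPM4 (1185 and 28.3) were higher in MDA-MB-231 cells. ACTA2, a smooth muscle actin (92.3 and 402), and TPM1, a tropomyosin, by 2.5-fold (1929 and 4813), were higher in T-47D cells. MYL9 was within 2-fold (107 and 178). CDH2, N-cadherin, and CDH11, another cadherin (74.5 and 4.7), did not reach the minimum on either array. FN1, fibronectin, did so on both and was within 2-fold by its brightest probe set (457 and 273). Its probe sets at 466 and 229 and at 414 and 199 passed 2-fold toward MDA-MB-231 cells, while that at 347 and 267 did not.

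Keratins and basal markers did not simply mirror this pattern. Of 7 keratins at the minimum, 5 were at least 2-fold higher in T-47D and 0 in MDA-MB-231 cells, with a median log2 ratio of -1.49 that turned to 0.21 under spike-in scaling. The simple epithelial pair KRT8 and KRT18 was still bright in MDA-MB-231 cells, at 1442 and 4552, against 9702 and 12762. KRT23 alone was on in a single line, at 4.5 and 2836. The basal keratins KRT5, KRT14 and KRT15 were below 100 on both arrays. Of 14 measured basal-like markers 9 were below 100 on both arrays, and of the other 5, LAMB3 (636 and 5.7) and EGFR were higher in MDA-MB-231 cells while CDH3, P-cadherin (0.8 and 352), CRYAB (3 and 236) and VGLL1 (0.2 and 272) were higher in T-47D cells.

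**Figure D2:**
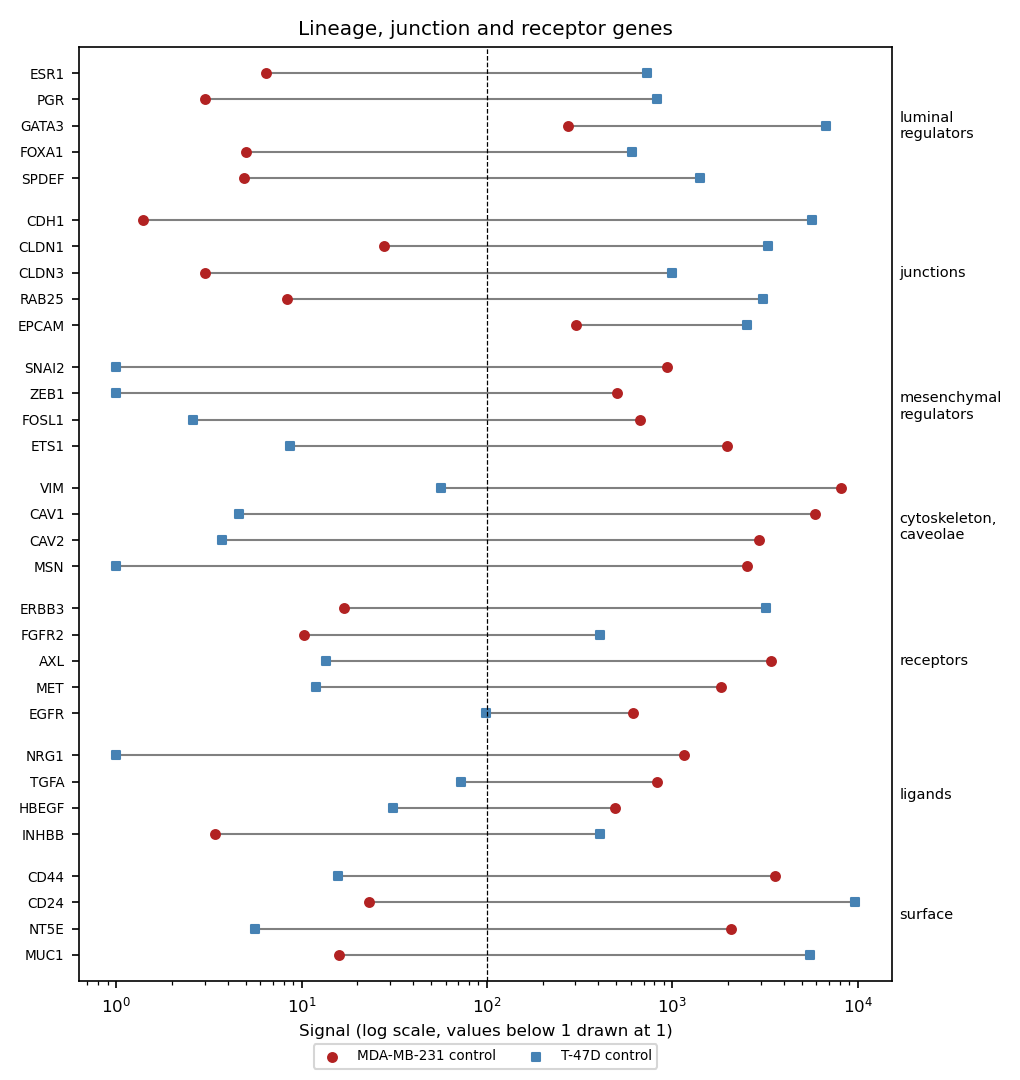
Signals of named lineage, junction, receptor, ligand and surface genes on the MDA-MB-231 (circles) and T-47D (squares) control arrays, on a log scale with values below 1 drawn at 1 and the minimum signal of 100 dashed; a line joins both values of a gene. The pairs sit on opposite sides of the dashed line for all but GATA3 (275 and 6794) and EPCAM (303 and 2546), which passed 100 in both lines.

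Matrix genes stood mainly on the MDA-MB-231 side. Of 31 extracellular matrix and remodelling genes at the minimum, 24 were higher by 2-fold or more in MDA-MB-231 but 3 in T-47D cells (median log2 ratio 4.37), and 20 of the 51 measured did not reach 100 on either array. Proteolysis at the cell surface was represented by PLAU, the urokinase (2018 and 17.3), its receptor PLAUR (524 and 32.6) and MMP14 (204 and 28). The crosslinking enzymes LOX (308 and 1.4) and LOXL2 (414 and 21.7) were below the minimum in T-47D cells. Basement membrane collagens COL4A1 (258 and 12.5) and COL4A2 (435 and 14.1) went with them. THBS1, a matricellular protein, was 18.2-fold higher in MDA-MB-231 cells (3700.0 against 203.3) by all 4 probe sets at the minimum. Protease inhibitors were divided, TIMP1 being 5.43-fold higher in MDA-MB-231 cells (2464 against 454) and TIMP2 similar (2551 and 2156). Against the trend, COL1A1, the main chain of type I collagen, had 42.9 in MDA-MB-231 against 656 in T-47D cells, LAMA5 83.8 and 247, and LAMB2 67.4 and 189.5. Among integrins, the receptors for this matrix, 5 of 7 were higher by 2-fold or more in MDA-MB-231 but 0 in T-47D cells, with ITGA6 at 1511 and 93.3 and ITGB1 at 5187 and 2176.

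Surface antigens that are used to sort breast cancer cells were opposite in the lines. CD44, the hyaluronan receptor, gave a signal of 3599.7 in MDA-MB-231 against 15.8 in T-47D cells, and all 8 of its probe sets at the minimum were higher in MDA-MB-231 cells. CD24, a small mucin-like antigen, gave 23.2 and 9641, with all 6 probe sets the other way. NT5E (CD73), which makes adenosine outside the cell, was at 2068 and 5.6, and ADORA2B, an adenosine receptor, at 2825 and 10.1. An enzyme and a receptor of the same ligand were thus on in MDA-MB-231 cells alone. CD274, the checkpoint ligand PD-L1, was at 295 and 5.1. The tetraspanins CD9 (1394 and 1391) and CD81 (834 and 1057) were close in both lines, while TSPAN13 was on only in T-47D cells (95.6 and 6500.5).

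Receptor tyrosine kinases lay on both sides. Of 16 at the minimum, 5 were higher by 2-fold or more in MDA-MB-231 but 7 in T-47D cells (median log2 ratio -0.29). On the MDA-MB-231 side stood AXL (3404 and 13.5), the receptor for GAS6, MET (1842 and 11.9), the receptor for hepatocyte growth factor, EPHA2 (722 and 3.5), an ephrin receptor, and ROR1 (386 and 4.6), a WNT5A receptor. EGFR had 613 in MDA-MB-231 against 99, just under the minimum, in T-47D cells. Another of its 3 probe sets at the minimum was within 2-fold and above 100 in both lines (200.8 and 110.8). On the T-47D side stood ERBB3, a neuregulin receptor with little kinase activity of its own (17 and 3207), its partner ERBB2, or HER2 (75.2 and 589.7), FGFR2 (10.3 and 408), FGFR3 (24 and 133.2) and IGF1R (48.1 and 281).

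Ligands lay mainly with MDA-MB-231 cells. Of 17 growth factors and related ligands at the minimum, 13 were higher by 2-fold or more in MDA-MB-231 but 3 in T-47D cells (median log2 ratio 3.39). NRG1, the ligand of ERBB3, had 1164 in MDA-MB-231 against 0.9 in T-47D cells, the reverse of its receptor. The EGFR ligands TGFA (825 and 72.6), HBEGF (489.9 and 31.2) and EREG (202 and 4) were instead highest in the line with the higher EGFR signal, and GAS6 (521 and 192) in the line with AXL. Among the others, DKK1, a secreted Wnt antagonist, was at 4853 and 38, PDGFC at 2571 and 246, and JAG1, a Notch ligand, at 581 and 19.1. The T-47D side held TGFB3 (23.3 and 457), INHBB, an activin subunit (3.4 and 405), and JAG2 (57.1 and 122).

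Receptors inside the nucleus differed beyond the estrogen and progesterone receptors. Of 17 nuclear receptors at the minimum, 9 were at least 2-fold higher in T-47D and 3 in MDA-MB-231 cells, with a median log2 ratio of -1.02 that turned to 0.81 under spike-in scaling. VDR, the vitamin D receptor, had 169 in MDA-MB-231 against 1008 in T-47D cells. RXRA, the shared partner of many of these receptors, had 342 and 873, and NR1H3, the oxysterol receptor LXRα, 63.3 and 344. The glucocorticoid receptor NR3C1 went the other way, 4.81-fold higher in MDA-MB-231 cells (769 against 159.9), as did PPARG (143 and 16.4). ESR2 and RARB did not reach 100 on either array.

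Genes of the TGF-beta and BMP pathway differed in both directions. TGFBR2, the ligand-binding TGF-beta receptor, was at 756 in MDA-MB-231 against 12 in T-47D cells, while TGFBR1 was measured in both (537 and 342). SMAD3 gave 281 and 32.3, whereas SMAD2 (379.8 and 302) and SMAD4 (267 and 224) were close. SMURF2, a ubiquitin ligase that degrades these receptors, was 14.8-fold higher in MDA-MB-231 cells (2961 against 200.5) by 4 of 4 probe sets. The BMP pathway members SMAD5 (392 and 145) and BMPR2 (278 and 136) were higher there too, BMPR2 by 2-fold in 1 of 2 probe sets at the minimum. SMAD1, another member of that pathway, was instead higher in T-47D cells (68.6 and 209). On the T-47D side were the type I receptor ACVR1B (147 and 472), the pseudoreceptor BAMBI, 24.3-fold higher (152 and 3687), and the BMP target genes ID1 (1458 and 3564), ID2 (119 and 976) and ID3 (431 and 2731). In the list as a whole 6 of 21 members were higher by 2-fold or more in MDA-MB-231 but 9 in T-47D cells.

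In the YAP and TEAD pathway, which responds to cell shape and tension, 11 of 23 members were higher by 2-fold or more in MDA-MB-231 but 4 in T-47D cells (median log2 ratio 0.96). Among the target genes, CCN2 had 2534 in MDA-MB-231 against 39.3 in T-47D cells, CCN1 5808 and 1359, and ANKRD1 245 and 4. AMOTL2, another target, was within 2-fold (773 and 1471). The 11 members also include the Hippo kinases STK3 (2.08-fold), STK4 (3.03-fold) and LATS2 (2.44-fold) and their scaffold SAV1 (2.52-fold), which act to restrain YAP. The coactivators themselves, YAP1 (1405 and 930.2) and WWTR1 (508 and 544), differed by less than 2-fold, and for both the probe sets did not all point the same way. Of the DNA-binding partners TEAD1 was higher in MDA-MB-231 cells (1181 against 261) and TEAD4 in T-47D cells (121 and 379).

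Innate immune genes lay mostly with MDA-MB-231 cells. Of 25 interferon-stimulated genes at the minimum, 16 were at least 2-fold higher there and 4 in T-47D cells (median log2 ratio 2.09). ISG15, a ubiquitin-like modifier, was 18.6-fold higher (3060.5 and 164). IFIT3 (1493 and 12.3) and IFIT1 (788 and 32), which bind foreign RNA, and IFI16, a DNA sensor (604 and 1.1), were below 100 in T-47D cells. MX1 (49.5 and 119), PARP9 (27.5 and 153), IFI35 (115 and 408) and UBE2L6 (480.5 and 1008), 4 members of the same list, were at least 2-fold higher in T-47D cells. Among 12 inflammatory genes at the minimum, 8 were higher in MDA-MB-231, 2 in T-47D cells, led by PTX3, a secreted pentraxin (3035 and 7.8), and IL11 (289.7 and 7.7). IL6, IL1A and IL1B were below 100 on both arrays. Class II antigen presentation genes appeared in MDA-MB-231 cells, with HLA-DRA at 603 and 16.1 and HLA-DPA1 at 678 and 13.1, although their coactivator CIITA did not reach 100. HLA-DMA went the other way (154 and 681), and the class I light chain B2M was alike (7546 and 7035).

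**Figure D3:**
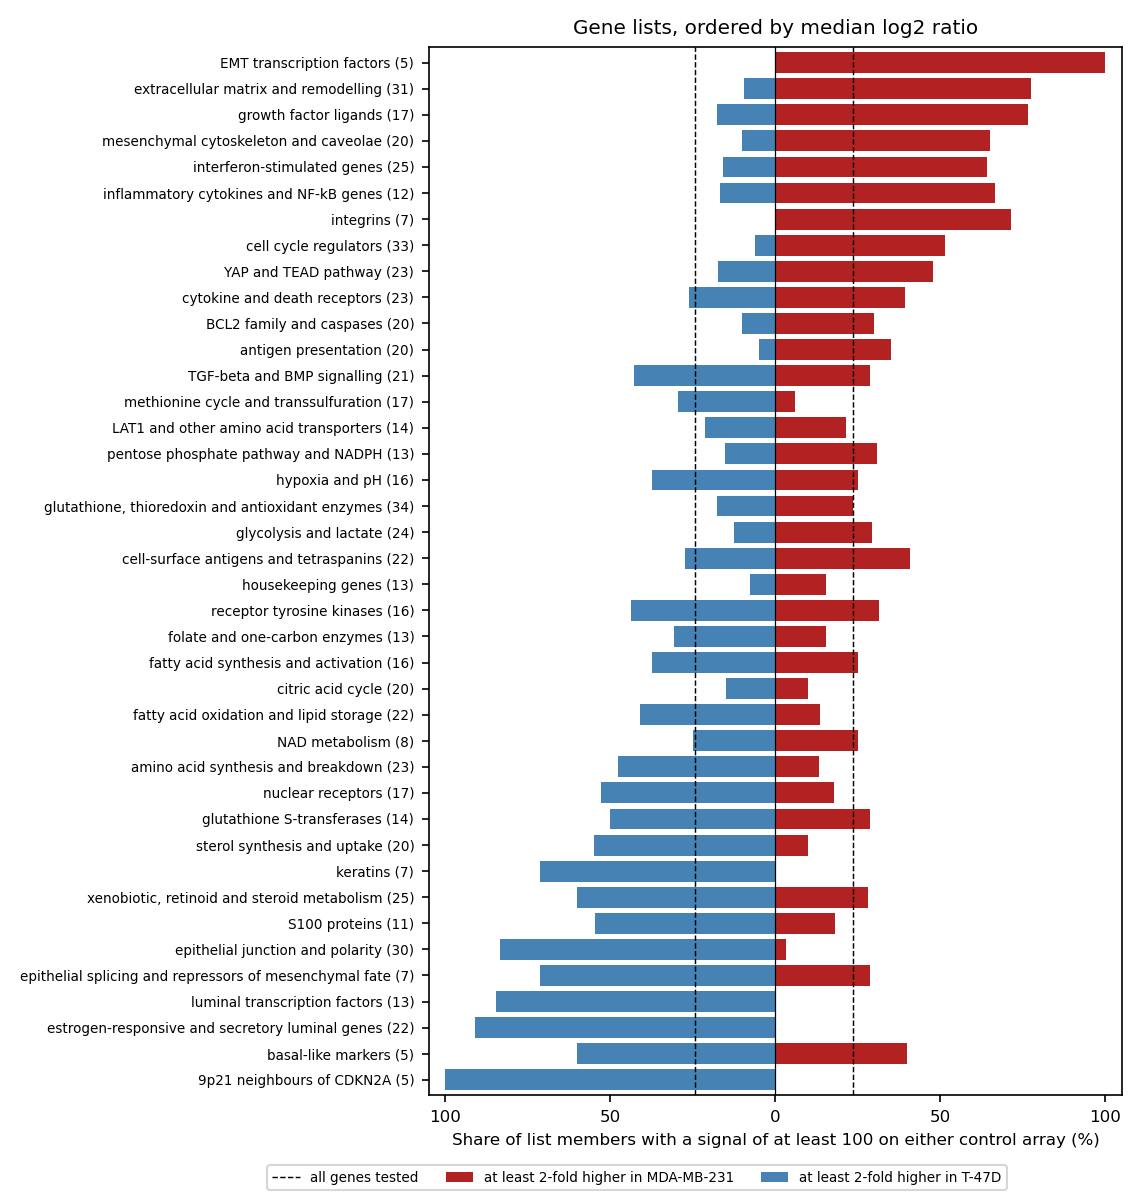
Share of the members of each of 40 gene lists that was higher by 2-fold or more in MDA-MB-231 (right, red) or T-47D cells (left, blue), among members at a signal of 100 or more on either control array (number in parentheses); dashed lines mark the shares over all genes, 23.4% and 24.4%. Junction and luminal lists extend far to the left and matrix and ligand lists to the right, while glycolysis, antioxidant and housekeeping lists stay near or below the dashed lines; under spike-in scaling the medians of the keratin, nuclear receptor, sterol, glutathione S-transferase, xenobiotic and S100 lists change sign.

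Central carbon metabolism was similar in bulk and different at a few enzymes. Of 24 glycolysis and lactate genes at the minimum, 14 were within 2-fold, 7 higher in MDA-MB-231, 3 in T-47D cells (median log2 ratio -0.14). LDHB, the lactate dehydrogenase subunit of heart-type enzyme, had 5513 in MDA-MB-231 against 46.6 in T-47D cells, with both of its probe sets in the same direction, whereas LDHA gave 8186 and 5734. HK2, the inducible hexokinase, was 8.41-fold higher in MDA-MB-231 cells (1039 against 124), and HK1 was within 2-fold (822 and 1375). The glucose transporter SLC2A1 was at 612 and 99.4, the latter just under the minimum, and SLC2A3 at 118 and 5.7. Aldolase C, ALDOC, was on the T-47D side (24.4 and 548) while ALDOA was bright in both (3919.5 and 6501). GAPDH differed by 1.18-fold (8489.8 and 10034). In the citric acid cycle 15 of 20 genes were within 2-fold, the widest difference being SDHC, a succinate dehydrogenase subunit, 4.34-fold higher in T-47D cells (872 and 3785).

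Isocitrate dehydrogenases, malic enzymes and the pentose phosphate pathway, which include the enzymes that make NADPH, differed in both directions. IDH2, the mitochondrial NADP-dependent isocitrate dehydrogenase, was 23.3-fold higher in T-47D cells (229 and 5326) by both probe sets. Cytosolic IDH1 was within 2-fold (499.9 and 934). The malic enzymes, cytosolic ME1 (455 and 2) and mitochondrial ME2 (594 and 179.8) and ME3 (168 and 17.5), were all higher in MDA-MB-231 cells, ME1 by at least 4.55-fold. The pentose phosphate enzymes TKT (2819.9 and 3475), TALDO1 (3107 and 4380.2) and PGD (976 and 1428) were all within 2-fold. RPIA, an isomerase of the same pathway, was 5.36-fold higher in MDA-MB-231 cells (777 against 145), and PGLS, a lactonase, 2.29-fold higher in T-47D cells (407 and 933).

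Lipid genes of oxidation, storage and sterols lay more with T-47D cells, while those of fatty acid synthesis were divided and isozymes were exchanged. Of 16 fatty acid synthesis and activation genes at the minimum, 6 were at least 2-fold higher in T-47D and 4 in MDA-MB-231 cells (median log2 ratio -0.44). SCD, the main stearoyl-CoA desaturase, was 13.3-fold higher in T-47D cells (256 and 3414), while SCD5, its brain-type relative, was measured in MDA-MB-231 cells alone (296 and 2.6). FASN, fatty acid synthase, had 48.9 and 395, and SREBF1, the factor that induces it, 25.8 and 246. The acyl-CoA synthetases ACSL4, which prefers arachidonate (379.8 and 6.7), and ACSL5 (658 and 7.8) were measured in MDA-MB-231 cells alone, and ACSL1 in both (541 and 788). FABP5, a fatty acid carrier, gave 979 and 0.9. Of 22 fatty acid oxidation and storage genes, 9 were at least 2-fold higher in T-47D and 3 in MDA-MB-231 cells, the carnitine enzymes CPT1A, by 4.34-fold, and CPT2 (128 and 632) among the former. Of 20 sterol genes, 11 were higher in T-47D and 2 in MDA-MB-231 cells, with a median log2 ratio of -1.26 that turned to 0.57 under spike-in scaling. APOE, a lipid carrier, was at 1.2 and 1758, and TM7SF2, a sterol reductase, at 33.3 and 1919. Of the enzymes of the mevalonate route, HMGCS1 (66.7 and 215), MVK (119 and 261), PMVK (427 and 1967) and IDI1 (456 and 1193) were all higher in T-47D cells, and FDPS, which acts after them, was within 2-fold (1878 and 2382). The squalene cyclase LSS was within 2-fold as well (433 and 686), and NPC1, which exports cholesterol from lysosomes, was 3.08-fold higher in MDA-MB-231 cells (674 against 219).

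**Figure D4:**
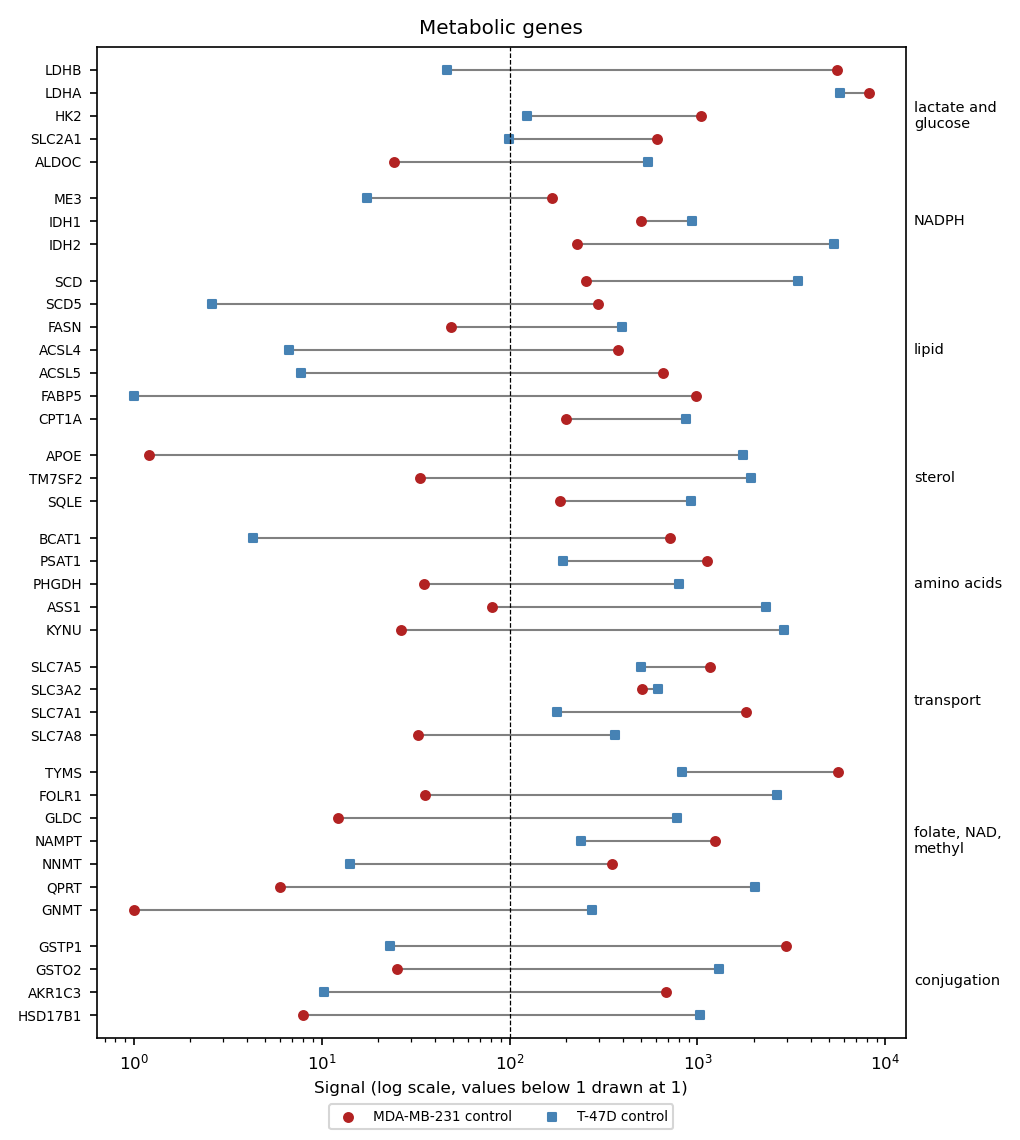
Signals of named metabolic genes on the MDA-MB-231 (circles) and T-47D (squares) control arrays, on a log scale with values below 1 drawn at 1 and the minimum signal of 100 dashed; a line joins both values of a gene. LDHB, FABP5, BCAT1, APOE and QPRT cross the dashed line with long spans, while LDHA (8186 and 5734) and SLC3A2 (509 and 619) have points that lie close together.

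Amino acid handling, the process that JPH203 interferes with, differed at transport and at synthesis. SLC7A5, the LAT1 transporter itself, was 2.33-fold higher in MDA-MB-231 cells (1168 against 502), and SLC3A2, its heavy chain 4F2hc, was within 2-fold (509 and 619). SLC7A8, the related transporter LAT2, had 32.5 and 366, so it reached the minimum in T-47D cells alone, by 2 of 5 probe sets (the other 3 were below 100 on both arrays), and SLC43A1 and SLC43A2 (LAT3 and LAT4) reached it in neither. SLC7A1, which carries arginine and lysine, was 10.2-fold higher in MDA-MB-231 cells (1814 against 178), and SLC38A2, a glutamine transporter, 2.22-fold higher in T-47D cells (1133 and 2511). Of 14 amino acid transporters at the minimum, 3 were higher in each line and 8 within 2-fold. BCAT1, the cytosolic enzyme that starts the breakdown of leucine, isoleucine and valine, had 717 in MDA-MB-231 against 4.3 in T-47D cells, and its mitochondrial counterpart BCAT2 399 and 314. BCKDHA, which encodes 1 chain of the next enzyme in that breakdown pathway, stood the other way (32.5 and 267). The partner chain was higher in T-47D cells too (67.8 and 137). The transacylase and lipoamide dehydrogenase subunits of the same enzyme were within 2-fold, with ratios of MDA-MB-231 over T-47D of 1.07 and 1.47. The enzyme as a whole therefore did not lie with one line.

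Serine synthesis was split within the pathway, whereas arginine synthesis lay with T-47D cells. PHGDH, the first enzyme of serine synthesis, was at 35.2 in MDA-MB-231 against 797 in T-47D cells. PSAT1, which catalyses the next step, was 5.81-fold higher in MDA-MB-231 cells (1122 against 193). PSPH, the last enzyme, had 837 and 392.5, but its probe sets disagreed in direction. ASS1, which makes the precursor of arginine, had 80.4 and 2306, and ASL, the following enzyme, 302 and 1032. Both arginine synthesis enzymes were thus higher in T-47D cells, opposite to the arginine transporter SLC7A1. GLUL, glutamine synthetase, was 3.51-fold higher in T-47D cells (1076 and 3777) and ASNS, asparagine synthetase, 2.08-fold (234 and 488). Over the list of 23 synthesis and breakdown genes, 11 were higher in T-47D and 3 in MDA-MB-231 cells (median log2 ratio -0.87).

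Routes to NAD and one-carbon units differed in their entry points. QPRT, which makes NAD from the tryptophan product quinolinate, was at 6 in MDA-MB-231 against 2024 in T-47D cells, and KYNU, which acts earlier in tryptophan breakdown, at 26.5 and 2905. NAMPT, the enzyme of the salvage route from nicotinamide, was 5.15-fold higher in MDA-MB-231 cells (1241 against 241), and NNMT, which methylates nicotinamide and so removes it, was measured there alone (349.5 and 14.1). NMRK1, a kinase that salvages nicotinamide riboside, was higher in T-47D cells (71.6 and 252), so the salvage genes did not all lie with one line. For folate, the carrier SLC19A1 reached the minimum in T-47D cells alone (6.9 and 168). The folate receptor FOLR1 had 35.4 and 2643 by its brighter probe set, but 451 and 558 by its other one, so its probe sets disagreed on whether MDA-MB-231 cells reached the minimum. GLDC, which cleaves glycine, was at 12.3 and 782. TYMS, the folate enzyme of DNA synthesis, was 6.72-fold higher in MDA-MB-231 cells (5589 against 831). In the methionine cycle 11 of 17 genes were within 2-fold, while GNMT, a glycine methyltransferase that disposes of surplus methyl groups, had 0.7 and 276, and SQOR, a hydrogen sulfide oxidase, was 6.81-fold higher in T-47D cells (375 and 2553).

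The general antioxidant list was close to the background, with 8 of 34 genes higher in MDA-MB-231, 6 in T-47D cells and 20 within 2-fold. TXN, thioredoxin (5981 and 4327), SOD1 (5131 and 7020.4) and GPX4, which protects membranes from lipid peroxides (3032 and 5486), were all within 2-fold. GPX1, the cytosolic glutathione peroxidase, was on in MDA-MB-231 cells alone (3675 and 9.7), at least 36.7-fold higher. GCLM, a subunit of the first enzyme of glutathione synthesis, was 7.39-fold (1002 and 136) and TXNRD1, thioredoxin reductase, 3.78-fold higher there (3704 and 980.5). PRDX3, the mitochondrial peroxiredoxin, was 2.1-fold higher in MDA-MB-231 cells (3657 against 1739.9), and SOD3, the extracellular dismutase, was measured in T-47D cells alone (22.7 and 246). Conjugating enzymes varied more. GSTP1 was on in MDA-MB-231 and off in T-47D cells, with the values given beside its promoter, and GSTO2 was the reverse (25.2 and 1307). Over 14 glutathione S-transferases 4 were higher in MDA-MB-231, 7 in T-47D cells, with a median log2 ratio of -1.16 that turned to 0.54 under spike-in scaling.

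Steroid and retinoid enzymes separated into opposite sets. AKR1C1, AKR1C2 and AKR1C3, ketosteroid reductases that adjoin each other on chromosome 10, had signals of 265, 126 and 681 in MDA-MB-231 against 22.7, 16.1 and 10.3 in T-47D cells. HSD17B1, which makes estradiol from estrone, was on in T-47D cells (8 and 1032), while HSD17B11 gave 915 and 2.4. SULT1A1, a sulfotransferase, was at 34.5 and 809, and CRABP2, a retinoic acid carrier, at 28.5 and 1081. Of 25 genes of the list at the minimum, 15 were higher in T-47D and 7 in MDA-MB-231 cells, with a median log2 ratio of -1.55 that turned to 0.7 under spike-in scaling. Metal-binding proteins were also unequal. MT1E had 5348 and 65.1, and MT1X was 10.9-fold (5459 and 499) and MT1F 16.3-fold higher in MDA-MB-231 cells (2662 against 163). The iron exporter SLC40A1, or ferroportin, was on in T-47D cells alone (69.4 and 2875).

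Of 33 cell cycle regulators at the minimum, 17 were higher by 2-fold or more in MDA-MB-231 but 2 in T-47D cells (median log2 ratio 1.22). MKI67, the Ki-67 antigen, had 849 and 59.5, CCNA2, cyclin A2, 1232 and 292, and CDC20, an activator of the anaphase-promoting complex, 2522 and 566. The replication proteins PCNA (2757 and 1999.7) and MCM2 (942 and 833) were within 2-fold, so the group did not shift evenly. CCND1, cyclin D1, was 10.5-fold (1582 and 151) and MYC 6.08-fold higher in MDA-MB-231 cells (868 against 143). CDK6 was at 505 and 27.4, whereas CDK4, its close relative, was within 2-fold (1740.0 and 3169). The 2 members higher in T-47D cells were CDKN2A (23.6 and 508) and CDKN2B (1.4 and 139), inhibitors of CDK4 and CDK6 that adjoin each other on chromosome 9. Their neighbours KLHL9 (3.1 and 464), FOCAD (0.8 and 237) and HACD4 (0.7 and 219) were also below the minimum in MDA-MB-231 cells. Other genes listed for that region, MTAP (9.4 and 76.0), DMRTA1 (1.5 and 3.8), ELAVL2 (4.4 and 8.2) and MLLT3 (39.3 and 25.7), were below 100 on both arrays. Copy number was not measured here.

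Among death regulators 12 of 20 were within 2-fold. PMAIP1 (NOXA), an activator of cell death, was at 1257 in MDA-MB-231 against 14.3 in T-47D cells, and BCL2L11 (BIM), another, at 189 and 49.2. CASP8, the caspase of death receptors, was 3.4-fold (400.4 and 118) and its receptor TNFRSF10B 2.86-fold higher in MDA-MB-231 cells (769.5 against 269). BIRC2, an inhibitor of cell death, was 2.38-fold higher there too (1370 and 576). The death activators CASP9, 2.14-fold (123 and 264), and BID, 2.13-fold (479 and 1018), were higher in T-47D cells, though the probe sets of BID disagreed in direction. BCL2 did not reach 100 on either array, and BCL2L1 (376 and 355) and MCL1 (1275 and 1169) were alike. Of 13 housekeeping genes 10 were within 2-fold, but HPRT1 was 4.29-fold higher in MDA-MB-231 cells (2442 against 569) and GUSB 2.98-fold higher in T-47D cells (603 and 1799).

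Outside the lists, the widest measurable ratios came from a small set of genes. SRGN, the proteoglycan serglycin of secretory granules, was 32.2-fold higher in MDA-MB-231 cells (3910.2 against 122) and IGFBP7, a secreted binder of insulin-like growth factors, 17.3-fold (5539.6 and 320.5). TP53I3, a quinone oxidoreductase first found as a p53 target, was 33.9-fold higher in T-47D cells (141 and 4769), EFHD1, a mitochondrial calcium-binding protein, 23.6-fold (139 and 3284) and the secreted chaperone CLU 16.4-fold (127 and 2080.4). Among on and off genes not yet named, MGP, an inhibitor of calcification, had the highest bound of any gene on in T-47D cells, at least 118-fold (0.4 and 11800.0). CRIP1 (0.6 and 5336), SERPINA6, the cortisol-binding globulin (2.4 and 4548), and the stress protein NUPR1 (17.3 and 7968) were on in T-47D cells too, and so was the long noncoding RNA DSCAM-AS1 (8.1 and 2648). Those on in MDA-MB-231 cells included PLAC8 (4185 and 39.6), G0S2, an inhibitor of fat breakdown (2488 and 20.7), and ANXA1 (3063 and 60.4).

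The 2 JPH203 arrays gave the same comparison in other cultures, though with drug. Of the genes called on the control arrays, 1654 of 1940 (85.3%) were again higher by 2-fold or more in MDA-MB-231 and 1540 of 2021 (76.2%) in T-47D cells, and 0 were called in the opposite direction. All 54 and all 70 on and off genes kept a difference of at least 2-fold, and 48 and 49 of them again met the on and off limits. For 5261 genes at the minimum on all 4 arrays, the log2 signals of the lines correlated with a Pearson r of 0.738 on the control and 0.716 on the JPH203 arrays, while control and JPH203 arrays of one line gave 0.991 for MDA-MB-231 and 0.951 for T-47D cells. These r are descriptions across genes, which are not independent replicates. Among the same genes 1684 differed at least 2-fold between the lines, beside 4 between JPH203 and control in MDA-MB-231 cells but 245 in T-47D cells. CDH1 was at 5.2 and 3449 on the JPH203 arrays of MDA-MB-231 cells and of T-47D cells, and CAV1 at 5651 and 7.8. In T-47D cells ESR1 was at 308 and PGR at 285 there, below their control signals but still above the minimum, and AGR3 was at 4248, above its control signal. SCD was at 358 and 1289, a narrower difference than on the control arrays, LDHA at 7701 and 3610.4, a wider one, and LDHB at 5386 and 50.2.

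**Figure D5:**
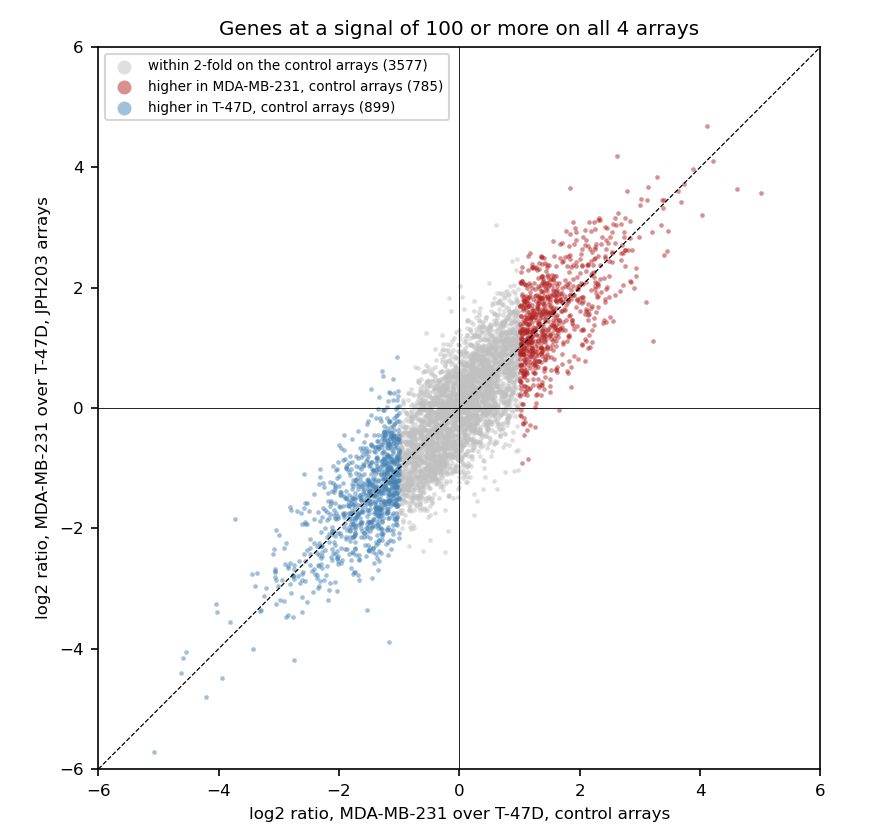
Log2 ratio of MDA-MB-231 over T-47D on the JPH203 arrays (vertical) against that on the control arrays (horizontal) for the 5261 genes that reached 100 on every one of the 4 arrays, colored by the control call; the dashed line marks equal ratios. The 785 genes higher in MDA-MB-231 and the 899 higher in T-47D cells lie mostly in the upper right and lower left corners, along the dashed line.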

How the data were processed

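RNA of T-47D and MDA-MB-231 cells was labelled and hybridised to 4 Affymetrix U133 Plus 2.0 arrays, 1 for each line and treatment. The authors deposited linear signal intensity values for 54675 probe sets, made with GCOS (named in the submitters' processing notes; version not given in the sources used here). Each array has a trimmed mean of 100.0 (2% off each end), as global scaling gives, and no other normalization is stated. The number of arrays limits the precision. Groups follow the labels.

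In the platform annotation 41097 of them name a single gene, 1801 name several and 11777 have no entry; 41043 were matched by gene identifier to RefSeq (GRCh38.p14), and 0 symbols changed. The table supplied names, neighbour order and gene lengths. A gene takes the probe set with the highest mean signal over both control arrays. Genes were called at a 2-fold difference (ratio 2 or 0.5 and beyond), given a signal of 100 or more on either array. No significance test was run. The members and the 41 gene lists (1083 genes, 996 with a probe set) were chosen with earlier results of these data known. Named genes are list members, the 15 widest ratios in each direction with both signals at 100 or more and all probe sets in agreement, and the 20 brightest on and off genes in each direction; other genes are marked. Motifs were searched on both strands of RefSeq promoters of 300 bases.

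Alternatives were other scalings (median centring, quantile, loess with a span of 0.4, poly-A spike-ins), a pseudocount of 16, minimum signals of 50 and 200, thresholds of 1.5-fold and 3-fold, other choices of probe set, and the JPH203 arrays. The code of the calling step was checked on simulated signals with known changes well beyond 2-fold, in genes with starting signals above the minimum. That check does not bear on genes near the limits, on the choice of probe set or on differences between arrays. Python 3.11.15 was used with numpy 2.4.6, pandas 2.3.3, statsmodels 0.14.6 and matplotlib 3.10.9.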

Additional observations from a re-analysis of the deposited data

Results flagged for a closer look

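The poly-A spike-in probe sets, which enter no comparison, were 3.25-fold brighter on the T-47D than on the MDA-MB-231 control array and 5.48-fold brighter on the T-47D than on the MDA-MB-231 JPH203 array (24 probe sets); the source of this difference was not tested. Another 1445 probe sets reached a signal of 100 on a control array without naming a single gene, of which 289 differed by 2-fold or more toward MDA-MB-231 and 338 toward T-47D cells. Both shares were below those over all genes at the minimum, 23.4% and 24.4%. The counts therefore do not set these probe sets apart.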

How the results depend on the processing

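With 1 array per line no spread between cultures was measured, and signals below 100 have no order. No paired analysis was possible because each condition has a single array. Direction was the same for the 229 named genes called at 2-fold under quantile normalization, loess and the JPH203 arrays. Median centring moves all log2 ratios by one constant, which was too small to turn a called gene. The pseudocount and the other minimum signals and thresholds cannot change which signal of a gene is larger, so they did not test direction. Of the 36 named genes within 2-fold, 12 turned on the JPH203 arrays, 4 under quantile normalization, 4 under loess and 1 under median centring. Scaling to the poly-A spike-ins changed most: 6772 genes were higher in MDA-MB-231, 444 in T-47D cells (3495 and 106 with both signals at the minimum), 251 and 32 were on and off, 93.8% of calls lay with MDA-MB-231 cells, 28 and 6 lists had medians at least 1 log2 unit apart in each direction, and 47.7% of T-47D calls recurred on the JPH203 arrays. List medians turned there for keratins (0.21), nuclear receptors (0.81), sterol (0.57), glutathione S-transferases (0.54), xenobiotic (0.7) and S100 genes (0.13), and log2 ratios of called genes for ACVR1B (0.02), ASNS (0.64), GUSB (0.12), HMGCS1 (0.01), ID1 (0.41), IDI1 (0.31), IGF1R (0.25), JAG2 (0.6), KRT18 (0.21), LAMA5 (0.14), LAMB2 (0.21), MVK (0.57), MX1 (0.44), PGLS (0.51), RXRA (0.35), SLC38A2 (0.55), TEAD4 (0.05), TPM1 (0.38), UBE2L6 (0.63), with the cause in the construction of that scale. The members behind the list medians on the spike-in scale can differ from those on the deposited scale, because other genes reach the minimum. With the minimum of 200, 520 and 577 genes were called with both signals at the minimum, and 89 were on in MDA-MB-231 cells. The 1.5-fold threshold called 1617 and 1537 genes with both signals at the minimum; the 3-fold threshold called 1171 and 1231 genes, 375 and 366 of them so. The mean of all probe sets called 1204 and 1334 genes (471 and 489 so), with 26 and 37 on and off. Without _x_at and _s_at probe sets 545 genes were called higher in T-47D cells with both signals at the minimum and 42 were on there. Choice of probe set turned ACVR1B (0.08), NPC1 (-1.67), PSPH (-0.73), TXNRD1 (-0.44) with the mean of all probe sets, and AKR1C1 (-1.8), FGFR2 (0.34), IDI1 (1.69), NMRK1 (1.1), PSPH (-0.4), SLC7A8 (0.12) without those sets. The other probe sets of ACVR1B, NPC1 and TXNRD1, and those left for AKR1C1, FGFR2, IDI1, NMRK1 and SLC7A8, were below 100 on both arrays, while those of PSPH disagreed.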

Other observations

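Chosen after the values were seen, the genes of each chromosome were counted by call. On chromosome 16, 151 of 357 genes at the minimum (42.3%) were at least 2-fold higher in T-47D and 37 (10.4%) in MDA-MB-231 cells. The order was opposite on chromosome 2, with 66 (12.1%) and 233 (42.7%) of 546 genes, on chromosome 4, with 40 (13.1%) and 142 (46.4%) of 306, and on chromosome 18, with 10 (8.5%) and 50 (42.7%) of 117, beside 24.4% and 23.4% over all genes. Gene length moved with the calls. Genes higher in MDA-MB-231 cells had a median length of 47.1 kb and those higher in T-47D cells of 20.5 kb, beside 30.4 kb for genes within 2-fold. Among genes of intermediate length (the middle tertile), the shares higher in T-47D and in MDA-MB-231 cells were 31.2% and 12.8% on chromosome 16, 8.0% and 40.8% on chromosome 2, 9.5% and 42.1% on chromosome 4, and 22.2% and 21.8% over all chromosomes. The part of gene length was not tested further, and copy number was not measured.

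Runs of neighbouring genes called in one direction were also counted after the values were seen. The longest, of 13 genes higher in T-47D cells, lies on chromosome 12 and holds the HOXC genes HOXC13, HOXC10, HOXC4 and HOXC6 with the noncoding RNA HOTAIR. A run of 12 on chromosome 1 includes MUC1, EFNA1 and ADAM15, and a run of 9 on chromosome 6 consists of histone genes and HFE, all higher in T-47D cells. In MDA-MB-231 cells a run of 8 on chromosome 19 holds CCNE1 and URI1, and a run of 5 on chromosome 7 holds CAV1, CAV2, MET and TES. A run of 6 on chromosome 16 is made of metallothionein genes, on a chromosome that otherwise leaned to T-47D cells. The probe sets of metallothioneins cannot fully separate the copies, so these 6 calls may share signal. Neighbours here are neighbours among genes at the minimum signal, and no test was made of the runs.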
